A study of Mus musculus with 8 samples.

Results

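Mast cells are tissue-resident granulocytes that store histamine, proteoglycans and large amounts of proteases in cytoplasmic granules. They release these stores when IgE bound to the high-affinity receptor FcεRI is crosslinked, or when other triggers such as Mas-related G protein-coupled receptors are engaged, and they then also make lipid mediators and cytokines. In rodents, connective tissue mast cells carry the chymases Mcpt4 and Cma1, the tryptases Tpsb2 and Tpsab1 and carboxypeptidase A3, whereas mucosal mast cells carry Mcpt1 and Mcpt2, and the dura mater is known for a dense population of the connective tissue kind.

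The mast cells described here were the cells that the authors' deposited annotation assigned to the cluster named Mast. They numbered 195 of 32457 annotated cells (0.601%) across 8 droplet single-cell RNA-seq libraries and 21 clusters. The libraries held leukocytes that stained for CD45 after tissue dissociation but not for a CD45 antibody given intravenously (CD45+CD45iv-), sorted from C57BL/6 mice, so that cells inside vessels were set aside. One library each came from control brain parenchyma, control pia mater and control dura mater, 2 from brain at 24 h after transient middle cerebral artery occlusion (MCAO, a stroke model in which a filament blocks the artery), and 1 each from dura and pia at 24 h and from brain at 72 h. According to the study's methods the mice were adult males and the controls were naive animals, although its figure legends call the single-cell controls sham. For the pia library without MCAO, 1 label (its title) says brain parenchyma while the others say pia, and it is given here as pia. The study gives a pooled number of mice for each compartment, but how many entered each library is not given in the sources used here.

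Most of the cluster came from the dura. Control dura held 63 mast cells among 2811 annotated cells (2.24%, exact Clopper-Pearson 95% interval 1.73 to 2.86) and dura at 24 h held 93 among 4518 (2.06%, interval 1.66 to 2.52), together 156 cells or 80.0% of the cluster. The other 39 cells were spread over 6 libraries, with 13 in brain at 72 h, 7 and 9 in the brain replicates at 24 h, 3 in brain without MCAO, 6 in the pia at 24 h and a single cell in the control pia. In these 6 libraries the cluster made up between 0.0356% and 0.26% of annotated cells. The dura share differed by -0.183 percentage points between 24 h and control (Newcombe interval -0.904 to 0.484), an interval that includes 0. Among cells with 1000 or more UMIs the order turned, with 1.73% in control dura and 2.81% at 24 h, and so it did when all barcodes that met the protease signature described below were counted as a share of all barcodes (2.29% and 2.43%). These intervals, like those on transcript levels below, cover counting error only. With 1 dura library for each condition there was no replicate to test against, and a cluster set against the cells it was clustered with is no test either, so values are given without p-values.

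The name of the cluster was then set against its markers. A cell was taken to carry the mast cell protease signature when it held at least 3 unique molecular identifiers (UMIs, each standing for 1 captured transcript) over Tpsb2, Cma1, Mcpt4 and Cpa3 with at least 2 of these genes detected. The signature was met by all 63 mast cluster cells of control dura, by 92 of the 93 of dura at 24 h and by all 6 of pia at 24 h. It was met by 5 of the 32 brain cells, namely 0 of 3 in the control, 0 of 7 and 1 of 9 in the replicates at 24 h and 4 of 13 at 72 h, and it was not met by the single cell of control pia. By this rule the name fitted the cells of the dura and of pia at 24 h, while most of the brain cells went against it. The signature genes are among those that chose or named the cluster. Meeting the signature is therefore a description and no independent support for the name.

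The brain cells were of more than 1 kind. The 3 control cells and the 7 cells of the first 24 h replicate had 0 UMIs of Tpsb2, Tpsab1, Cma1, Mcpt4, Cpa3, Kit, Fcer1a, Ms4a2, Hdc and Gata2. Their transcripts included Cst3 and the complement genes C1qa, C1qb and C1qc, which brain macrophages and microglia express. Levels are given as CPM, UMIs per 1000000 UMIs of the cells summed. In the control cells C1qb stood at 12750 CPM (8770 to 17900, exact Poisson 95% interval) against 8960 in the other cells of that library, and the microglial receptor gene P2ry12 at 4635 against 6840. In the cells of the first 24 h replicate C1qb stood at 6058 CPM against 9290, while P2ry12 was at 0 UMIs against 1940 CPM and Tmem119, another microglial gene, stood at 173.1 against 2240. In the second 24 h replicate, 5 of 9 cells held the basophil proteases Mcpt8 and Prss34, with 385 and 710 UMIs summed over the cluster. A single cell there carried 74 UMIs of the mast cell proteases, and 3 cells had none of either set. At 72 h, 8 of 13 cells held 3 or more Mcpt8 UMIs, 4 cells carried between 25 and 114 UMIs of the mast cell proteases, and 2 of those 4 held 3 or more Mcpt8 UMIs as well. The single control pia cell held 142 Mcpt8 and 271 Prss34 UMIs and no Tpsb2. For these reasons the brain cells and the control pia cell were left out of the comparisons that follow.

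**Figure D1:**
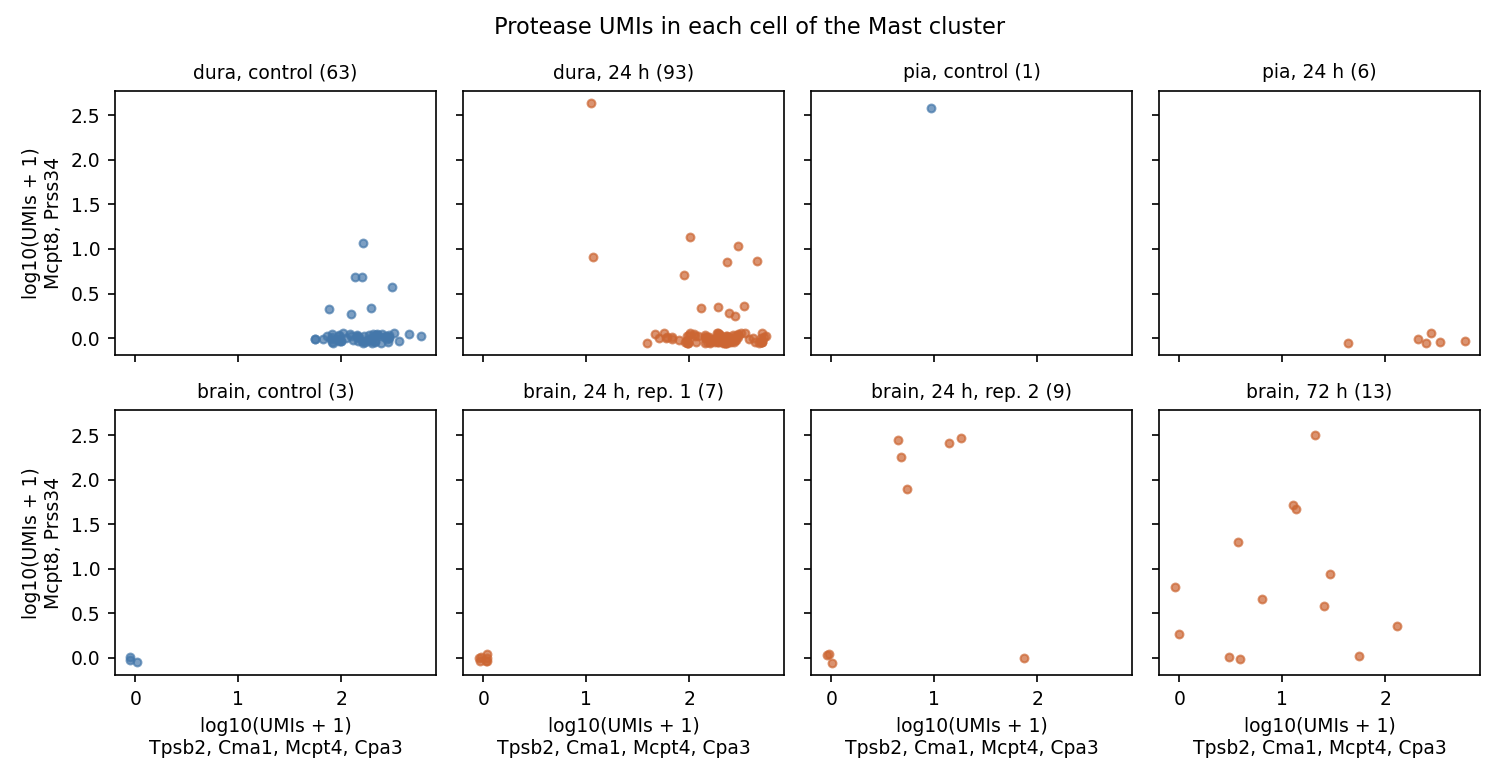
Each point is 1 cell of the Mast cluster, with the log10 of its UMIs plus 1 for Tpsb2, Cma1, Mcpt4 and Cpa3 together on the horizontal axis and for Mcpt8 and Prss34 together on the vertical axis, jittered slightly, and the number of cells in each panel title. Cells of both dura libraries and of pia at 24 h lie at the lower right, with 2 exceptions in dura at 24 h, while the 10 cells of control brain and of the first 24 h brain replicate lie at the origin.

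Few cells of the dura cluster stood apart by their proteases. In dura at 24 h, 1 cell carried 79 Mcpt8 and 375 Prss34 UMIs and no Tpsb2. Another, the deepest of the cluster at 5351 UMIs, carried 10 UMIs of the mast cell proteases, 9 of Cpa3 and 1 of Cma1. That cell also held 5 Mcpt8 and 2 Prss34 UMIs and no Tpsb2, and it counts among those that met the signature. All 433 UMIs of Prg2, the major basic protein of eosinophil granules, were in a single cell, and 99.0% of the 96 UMIs of the myeloperoxidase gene Mpo were in 1 cell as well. Mast cells had a median of 1263 UMIs and 571 genes in control dura, against 1701 UMIs and 822 genes in the other cells, and of 1482 UMIs and 669 genes at 24 h, against 1188 and 684. The median mitochondrial share was 2.16% in mast cells and 2.05% in other cells of control dura, and 1.69% and 1.79% at 24 h.

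Granule proteases dominated the mast cell transcriptome of the dura. The 12 listed proteases together made up 13.9% of all mast cell UMIs in control dura, and Tpsb2, the leading tryptase, alone stood at 57720 CPM there and at 84930 at 24 h. The rest of the annotated cells in those libraries held 32.5 and 79.6 Tpsb2 CPM. Chymase Cma1 stood at 44170 and 36610, carboxypeptidase Cpa3 at 21310 and 15670, chymase Mcpt4 at 11310 and 5929 and tryptase Tpsab1 at 4115 and 7140 in control dura and at 24 h. The mucosal protease gene Mcpt1 was at 0 UMIs in both libraries and Mcpt2 at 0 and 5 UMIs. Because these genes chose or named the cluster, the values are a description.

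Across genes, 99 of the 773 genes with at least 20 UMIs, observed or expected, in the mast cells of both dura libraries were 4-fold or more higher in mast cells than in the rest of the same library in both (12.8%), and 103 were 4-fold or more lower in both (13.3%). These counts were 36 and 36 after each cell was thinned to 500 UMIs, and 171 and 184 without the control dura library. Both settings change which genes meet the minimum, so these counts are not shares of the 773 genes. The median gene lay at -0.51 in control dura and -0.50 at 24 h on the log2 scale. All 6 granule proteases past the minimum were among the higher genes, as were 10 of 12 surface receptors, 3 of 7 genes of granule matrix and amine handling, 6 of 17 immediate early genes and 3 of 10 cytokines and chemokines. In these lists 2 of the cytokines and chemokines, 1 immediate early gene and 1 surface receptor were among the lower genes. All 6 MHC class II genes past the minimum were among the lower ones, as were 7 of 8 macrophage markers and all 6 neutrophil markers. The invariant chain gene Cd74, for example, stood at 1275 CPM in mast cells against 51700 in other cells of control dura, and at 1357 against 38500 at 24 h. Of the 4 basophil markers past the minimum, 3 were among the higher genes and 1 among the lower. For the basophil marker Prss34, 375 of the 413 UMIs at 24 h lay in 1 cell. Cd200r3, another of these markers, was found in 37 of 63 mast cells in control dura and in 53 of 93 at 24 h. None of the 6 fibroblast markers had a UMI in the mast cells of either library.

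Genes were ranked by the smaller in size of their log2 ratios in the dura libraries. By this rule the 15 highest were headed by Gm21190, Tpsb2, Mrgprb1, Gm17019 and Mrgprx2. After these came Gm10354, Mcpt4, Slc6a4, Tph1, Cpa3, Speer4e, Mrgprb2, Slc45a3, Cma1 and Hs6st2. In control dura alone Mrgprb2 (11.96) and Mrgprx2 (11.45) lay above Gm21190 (10.11). At 24 h alone Gm17019 (10.71) lay above Gm21190 (10.63). The order also depended on the reference. Against the mean of the other clusters, each weighted equally, Tpsb2 stood at 10.26 on the log2 scale, while Mrgprx2 went from 9.82 to 6.56, Gm17019 from 9.83 to 7.74 and Slc6a4 from 9.40 to 6.80. Mrgprb2 encodes the receptor through which many cationic peptides and drugs activate mouse mast cells, and it stood at 1047 CPM in control dura against 0.177 in other cells, and at 695.9 against 1.13 at 24 h. The related receptor gene Mrgprb1 was more abundant, at 1624 and 1663 CPM. The serotonin genes Tph1 (tryptophan hydroxylase, 637.7 and 570.7) and Slc6a4 (the serotonin transporter, 336.9 and 208.8) were each under 1 CPM in other cells of both libraries. Gm21190, Gm17019, Gm10354 and Speer4e all lie on chromosome 5, and Speer4e belongs to a multigene family, so how reads were shared among copies is uncertain. The 10 lowest genes were S100a8, Chil3, S100a9, Wfdc21, Ltf and Ngp, which neutrophils and their precursors express, the γδ T cell receptor gene Trdc, the antibody chain gene Jchain, the MHC class II gene H2-Eb1 and Cd83.

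Further members of the mast cell program spanned a wide range of levels. Hdc, histidine decarboxylase, which makes histamine, stood at 11770 and 12660 CPM against 82.5 and 189 in other cells. The transcription factor gene Gata2 stood at 661.8 and 682.0 against 2.12 and 2.64, and Mitf at 228.6 and 139.2 against 7.95 and 6.65. Kit, the receptor for stem cell factor, stood at 577.5 and 229.7, and Ms4a2, the FcεRI β chain, at 577.5 and 549.8. Among cytokines, Ccl2 stood at 7255 and 7071 CPM and Ccl7 at 6858 and 7001, while Il4 (312.8 and 278.4) and Il13 (264.7 and 306.2) were lower. When each cell was thinned to 500 UMIs, Ccl2 was detected in 88.9% of mast cells in control dura and 84.9% at 24 h, whereas Ccl7 was detected in 44.4% and 49.5%, although its summed level was close to that of Ccl2. The same thinning gave 15.3% and 10.5% for Ccl2 in other cells.

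**Figure D2:**
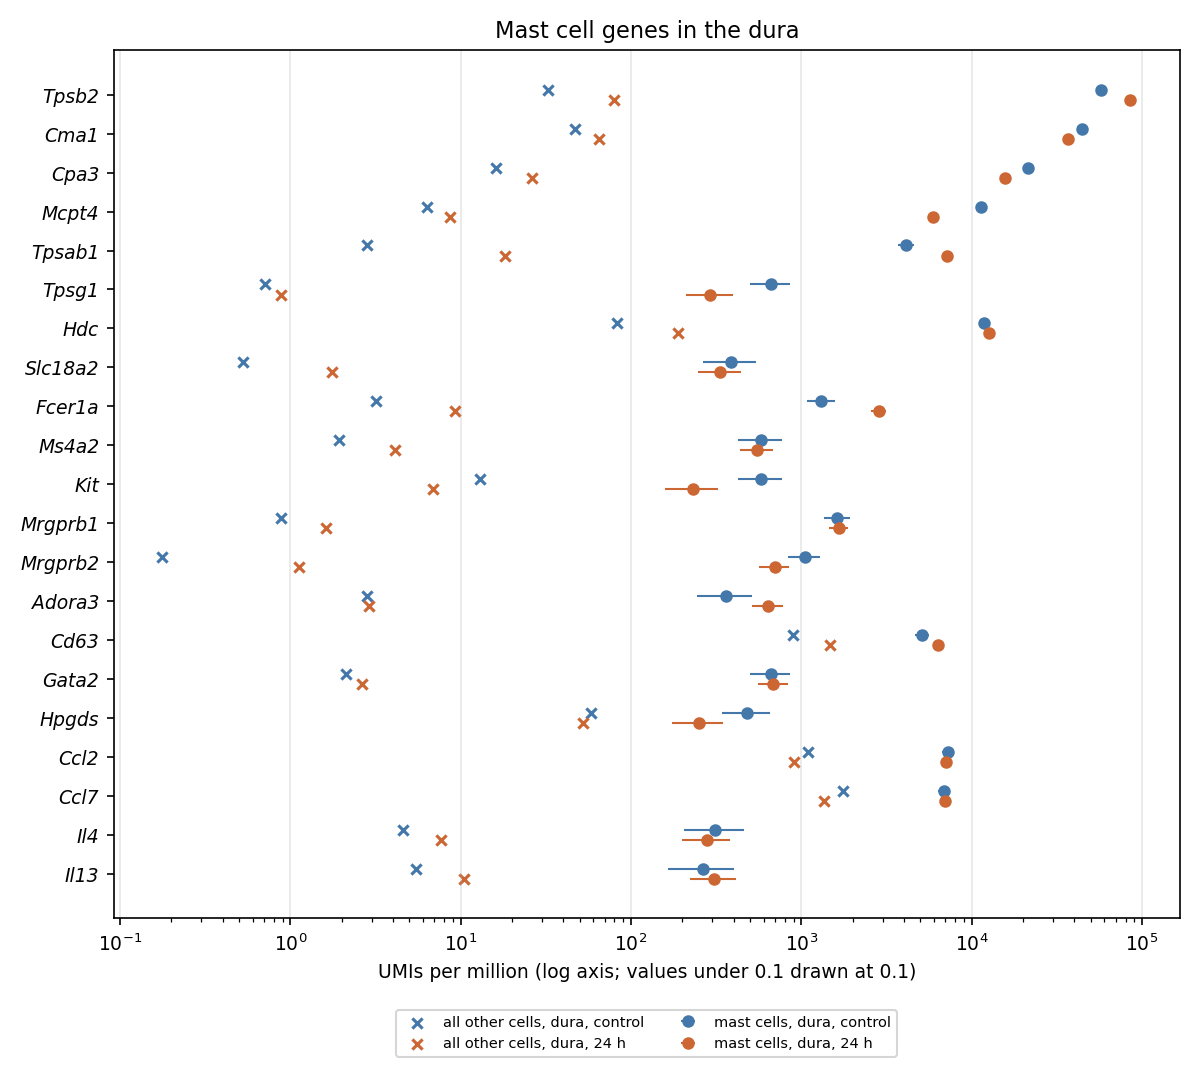
Levels of 21 mast cell genes in the dura, as CPM on a log axis, in mast cells (circles, with exact Poisson 95% intervals) and in the rest of that library's annotated cells (crosses), for control (blue) and 24 h (orange). Every mast cell value lies to the right of the other cells' value of the same library, from Tpsb2 at 57720 and 84930 down to Kit at 229.7 at 24 h.

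Letters read by the GATA family were looked for upstream of the genes with the highest ratios, because Gata2 is among the mast cell transcription factors. The letters AGATAA or TGATAA, on either strand, occurred in 5 of the 17 RefSeq windows (29.4%), each from 250 bases before to 50 after a start (GRCm38.p6), that 14 of these genes had, and in 18.6% of all 32851 windows. The 120 bases before the start of 3 of the 5 are shown, with the matching letters in capitals, for chr14:56062311-56062430 (Mcpt4), chr3:20242182-20242301 (Cpa3) and chr7:48558087-48558206 (Mrgprb2), all on the minus strand.
Mcpt4: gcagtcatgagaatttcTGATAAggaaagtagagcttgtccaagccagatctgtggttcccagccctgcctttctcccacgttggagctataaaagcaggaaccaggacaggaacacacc
Cpa3: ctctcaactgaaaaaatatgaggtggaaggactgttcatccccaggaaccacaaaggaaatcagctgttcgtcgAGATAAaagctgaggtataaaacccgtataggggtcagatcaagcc
Mrgprb2: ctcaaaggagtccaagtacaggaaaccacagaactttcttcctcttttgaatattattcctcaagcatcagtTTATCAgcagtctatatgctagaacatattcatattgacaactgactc
The letters begin 103 bases before the start in Mcpt4, 46 in Cpa3 and 48 in Mrgprb2. A match of this kind is a description of the sequence.

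Dura mast cells at 24 h after MCAO were then set against those of control dura. The proteases moved in different directions. Tpsb2 was higher at 24 h by 0.56 on the log2 scale (0.51 to 0.61, exact binomial 95% interval of the 2 counts) and Tpsab1 by 0.79 (0.62 to 0.98), whereas Mcpt4 lay at -0.93 (-1.07 to -0.80), Tpsg1 at -1.17 (-1.79 to -0.57), Cpa3 at -0.44 (-0.53 to -0.35) and Cma1 at -0.27 (-0.33 to -0.21). The difference was seen in single cells as well. The median cell devoted 11400 CPM to Mcpt4 in control dura (quartiles 7780 and 14200) and 5370 at 24 h (2960 and 8060), so that the upper quartile at 24 h lay close to the lower quartile of the control. For Tpsb2 the medians were 58800 (38100 and 70900) and 84000 (63300 and 108000). With cells thinned to 500 UMIs, Mcpt4 was detected in 98.4% of control and 81.7% of 24 h mast cells, and Tpsab1 in 66.7% and 86.0%.

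The IgE receptor gene Fcer1a, the α chain of FcεRI, was higher at 24 h, with 109 UMIs in control and 410 at 24 h, or 1311 and 2853 CPM (log2 1.12, 0.81 to 1.44), and was found in 47.6% and 61.3% of thinned mast cells. Fcer1a was also higher at 24 h in the other dura cells, at 3.18 and 9.29 CPM (log2 1.52). Kit lay at -1.32 (-2.02 to -0.66) in mast cells and at -0.90 in other cells, and the difference of -0.42 had an interval that included 0 (-1.12 to 0.24). The granule-docking gene Rab27b lay at -1.19 (-1.77 to -0.62) in mast cells and 0.57 in other cells, and the adenosine receptor gene Adora3 at 0.81 (0.22 to 1.47) and 0.02. Ms4a2, Mrgprb1, Hdc, Gata2, Ccl2, Ccl7, Il4 and Il13 had intervals that included 0. In the 6 mast cells of pia at 24 h, Tpsb2 stood at 97750 CPM (92200 to 104000) and Mcpt4 at 4913 (3730 to 6350), and Fcer1a was at 0 UMIs, for which a floor of 3 counts allows a level of up to 254 CPM. No cell of the cluster in control pia met the signature, although 1 annotated cell of another cluster there did, so the pia offers no comparison over time.

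Immediate early genes, which cells transcribe within minutes of a stimulus, were mostly lower in the mast cells at 24 h. The ratio was below 0 for 15 of the 19 that had 20 or more UMIs. Of all 943 genes at that minimum, 41.0% had a ratio below 0. That share is no even yardstick, because 441 of the 943 met the minimum at 24 h only and 8 in control only. The 21 listed genes summed to 81380 CPM in control dura and 45670 at 24 h in mast cells, and to 15830 and 16870 in all other cells. Fos stood at 8338 CPM in control dura and 1663 at 24 h (log2 -2.32, -2.54 to -2.11), against 946 and 733 in other cells. Dusp1 lay at -1.51 (-1.69 to -1.33), Ier2 at -1.55 (-1.77 to -1.33), Klf2 at -1.62 (-1.94 to -1.31), Zfp36 at -1.87 (-2.48 to -1.31) and Jun at -1.07 (-1.18 to -0.95). Nr4a1 (-0.00, -0.25 to 0.25) and Jund (-0.04, -0.18 to 0.10) had intervals that included 0. The median mast cell carried 5890 Fos CPM in control dura and 529 at 24 h, and Fos was found in 79.4% and 35.5% of thinned mast cells against 25.2% and 22.1% of other cells. Egr1 lay at -1.37 (-1.68 to -1.06) in mast cells and at -1.16 in other cells. Of 12 heat shock genes, 5 had 20 or more UMIs and none of these was 2-fold higher or lower, with or without the subtraction of the other cells. Their median log2 ratio was 0.28 in mast cells and 0.14 in other cells. Hspa8, the most abundant, lay at 0.49 in mast cells (0.33 to 0.66) and at 0.14 in other cells.

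**Figure D3:**
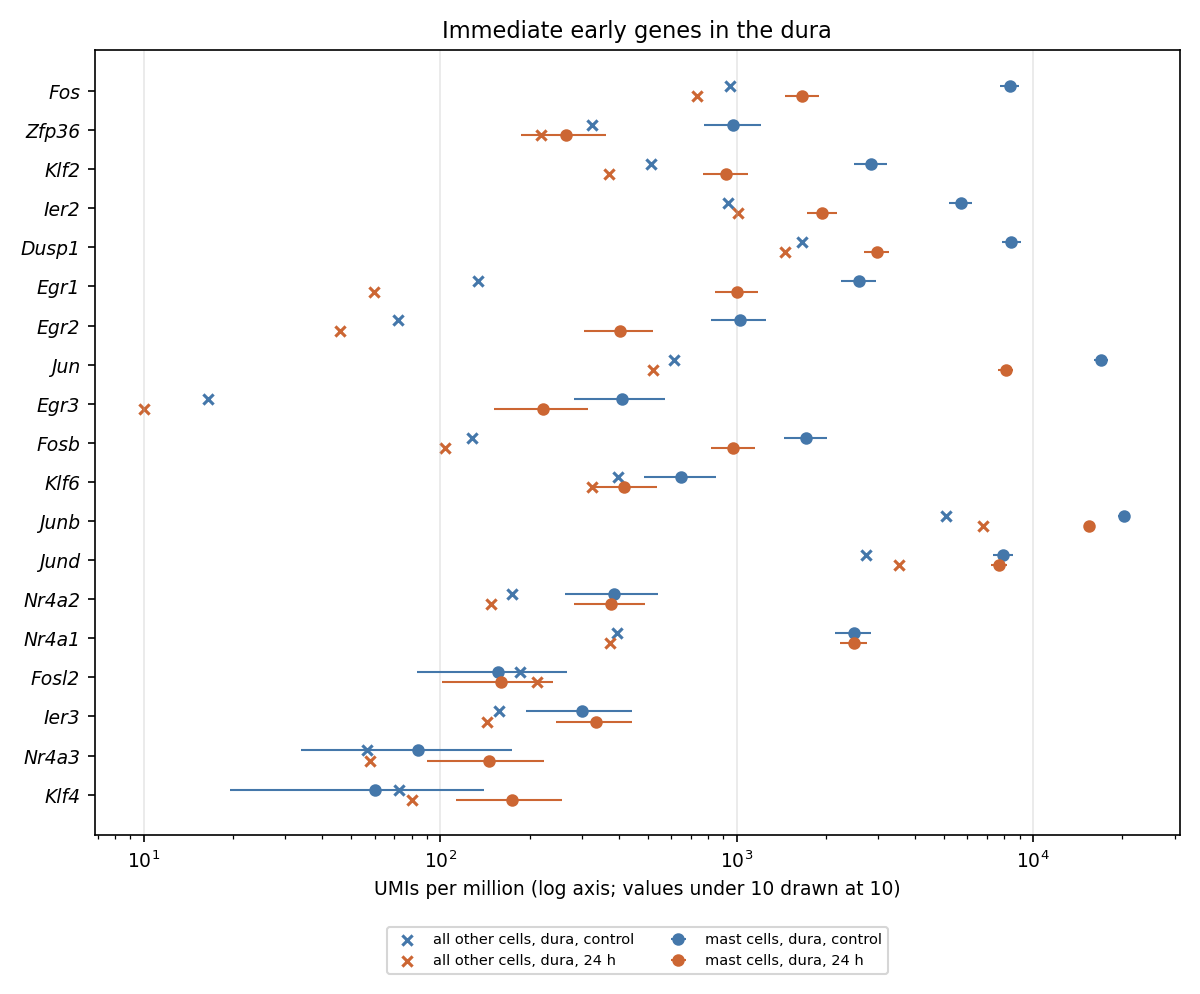
Levels of the 19 immediate early genes with 20 or more UMIs in dura mast cells, as CPM on a log axis, ordered by the log2 ratio in mast cells, with the same symbols as the plot of mast cell genes. From Fos to Jun the mast cell values at 24 h lie to the left of the control values beyond their intervals, while the intervals of Nr4a1 and of Jund overlap.

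To set aside changes shared with the rest of the dura, the log2 ratio of the cells outside the cluster was subtracted. That ratio is pooled over clusters, so it also carries any shift in their mix between the libraries. Of 943 genes with at least 20 UMIs in the mast cells of either library, 66 were then 2-fold or more higher at 24 h (7.0%) and 45 were 2-fold or more lower (4.77%). The minimum can be met in 1 library alone, and the mast cells at 24 h held 143693 UMIs against 83112 in control. Of the 66 higher genes, 56 met it at 24 h only (84.8%), as did 441 of all 943 (46.8%) and 7 of the 45 lower genes. Among the 494 genes that met it in both libraries, 10 were higher and 32 lower, so the larger number of higher genes rests on genes with few control UMIs, and no order between the 2 directions is read from these counts. Without the subtraction 87 were higher (9.23%) and 30 lower (3.18%). Of the 19 immediate early genes, 5 were 2-fold lower and 1 was 2-fold higher after the subtraction, and 8 were lower and 1 higher without it. Their median difference was -0.40. Over all 943 genes it was 0.09, a value that rests on the same minimum and is no even yardstick. For genes that are nearly restricted to mast cells the subtraction rests on the few UMIs found in other cells, which for Tpsb2 numbered 184 in control dura and 634 at 24 h, 83 and 277 of them in cells that met the protease signature. It turned Tpsab1 from 0.79 to -1.85, and for such genes the ratio in mast cells alone is the value to read.

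By the subtracted value the 10 genes highest at 24 h were Gnai1, Zcchc10, Bhlhe40, Ucp2, Snw1, Glb1, Fbl, Rab20, Anpep and Dnajc7. All but Gnai1 met the minimum at 24 h only, with 1 to 8 UMIs in control mast cells and 24 to 51 at 24 h, so they had to lie higher at 24 h to be listed, and their ratios are a description. After thinning to 500 UMIs the subtracted value went from 1.78 to 0.34 for Dnajc7, from 3.72 to 1.43 for Gnai1, from 2.18 to 1.15 for Glb1 and from 1.82 to 1.14 for Anpep. The other 6 stood between 2.96 (Bhlhe40) and 4.01 (Ucp2). Bhlhe40, a transcription factor gene, was found in 5 of 63 mast cells in control dura and in 31 of 93 at 24 h, and stood at 60.16 and 354.9 CPM (log2 2.44, 1.24 to 4.24) against 289 and 305 in other cells. Glb1, the lysosomal β-galactosidase gene, stood at 48.13 and 285.3 CPM, and Anpep, the aminopeptidase N gene, at 96.26 and 292.3. Gnai1, a G protein subunit gene, lay at 0.42 in mast cells (-0.34 to 1.28) and was at 0 UMIs in other cells at 24 h. The 10 lowest were Gdf15, Gm9758, Mrgprb2, Gadd45g, Fos, Tpsab1, Ighm, Fam129b, Slc18a2 and Rab27b. The stress-response genes Gdf15 and Gadd45g were lower in the mast cells themselves, at 529.4 and 69.59 CPM for Gdf15 and at 300.8 and 48.71 for Gadd45g, while Gm9758, Ighm, Fam129b and Slc18a2 had intervals in mast cells that included 0.

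**Figure D4:**
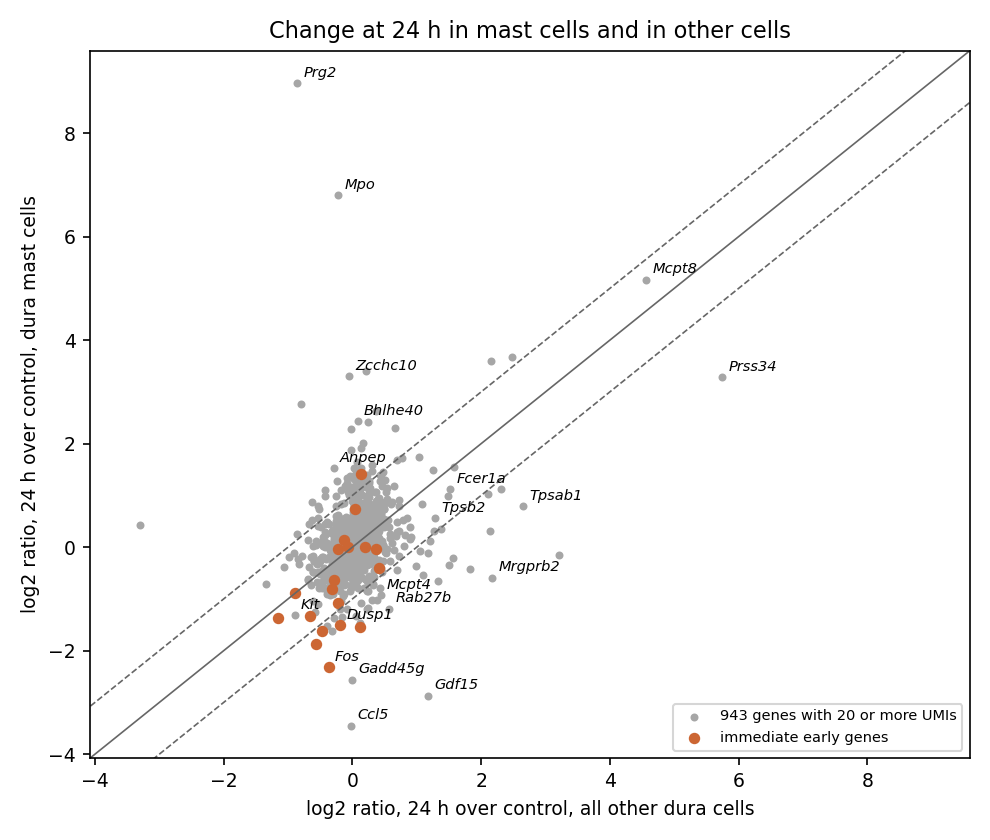
Log2 ratio of 24 h over control in dura mast cells (vertical axis) and in all other dura cells (horizontal axis) for the 943 genes with 20 or more UMIs, with immediate early genes in orange, the line of equal change solid and 2-fold differences dashed. Prg2, Mpo, Mcpt8 and Prss34, far from the rest, owe 84.9% or more of their 24 h UMIs to 1 cell, and the labelled immediate early genes Fos and Dusp1 lie below the lower dashed line.

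Each condition of the dura was 1 library, so the time after MCAO and the library cannot be told apart. The study's supplementary sample list names a different kit version for each of the dura libraries, whereas their barcodes overlapped to a like extent as those of the pia, control brain and first 24 h brain libraries (18 shared barcodes in a range of 12 to 43, against 0 to 1 between dura at 24 h and the second 24 h brain replicate or brain at 72 h), so which kit made dura at 24 h was not settled and its part in every difference between 24 h and control was not tested. Depth moved with the condition in opposite directions in mast cells and in other cells, as given above. With every cell thinned to 500 UMIs, 27 genes were higher and 14 lower at 24 h after the subtraction, among those that still had 20 UMIs or more. The median difference of the immediate early genes was then -0.84. It was taken over the members that still met that minimum, so it need not cover the same genes as the median of -0.4 before thinning. With a minimum of 50 UMIs and no thinning the median was -0.74.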

How the data were processed

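The deposited counts are whole UMIs per gene and barcode, which the authors made with Cell Ranger 6.0 on mm10, per the labels. The deposited annotation, made by the authors with cell filters, scDblFinder doublet removal, Seurat, Harmony and clustering over all libraries together, named a cluster for each retained barcode; its UMAP coordinates (score values that the authors computed) were not used. Barcodes without a cluster (293 in control dura, 538 in dura at 24 h) entered no comparison of the annotated clusters. They were counted only for the protease signature, on their own and, as an alternative definition of the dura share, together with all other barcodes. Total UMIs per library ran from 6591898 to 20754181.

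UMIs were summed over the mast cells and over all other annotated cells of each library and divided by their totals (counts per 1000000 UMIs, CPM). Log2 ratios used 0.5 added counts, and 38 symbols carried by more than 1 identifier were left out. Mast cells were compared with other cells in the libraries with 30 or more mast cells, at 4-fold in both, and dura at 24 h with control at 2-fold, each with 20 UMIs or more. Named genes were the members of 6 mast cell lists with 20 UMIs, the 15 highest and 10 lowest against other cells, the 10 highest and 10 lowest at 24 h with a UMI in 10 or more cells, and up to 4 members of other lists. The cluster, gene lists and rules were chosen with earlier results of these data known. The code was tested on simulated data. No doublet caller was run again. Python 3.11.15, R 4.3.3 and edgeR 4.0.16 (for TMM factors, as an alternative scaling) were used.

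Barcodes shared between libraries were counted, to look for shared cells and for libraries made with different barcode lists. The 6 libraries other than the second 24 h brain replicate and brain at 72 h shared 12 to 43 barcodes in each pair, and at most 2 with those 2. No mast cell barcode was shared by a pair. Results on some genes are not reported here.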

Additional observations from a re-analysis of the deposited data

Results flagged for a closer look

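Mast cell protease transcripts were found among the barcodes without a cluster in 3 libraries after MCAO, at a share above that of the control library of the same tissue. In dura at 24 h, 17 of the 538 barcodes without a cluster met the mast cell protease signature (3.16%, exact binomial 95% interval 1.85% to 5.01%), against 2 of 293 in control dura (0.683%, 0.0828% to 2.44%), and the intervals overlap. Of the 17, 12 held 20 or more UMIs of the 4 genes, with a median of 2935 UMIs and 1300 genes, against 1482 UMIs and 669 genes in the annotated mast cells of that library. In the other 2 the share rests on a single barcode, 1 of 400 in pia at 24 h and 1 of 1347 in brain at 72 h. The control libraries of these tissues had 0 of 266 and 0 of 295, for which a floor of 3 counts allows shares of up to 1.13% and 1.02%, so no difference was detectable. Both 24 h brain libraries had none, of 378 and 880.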

How the results depend on the processing

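No paired analysis was possible because no group compared had more than 1 library. The dura shares stayed within their counting intervals under the other denominators and definitions, except that among cells with 1000 or more UMIs the share at 24 h was 2.81% (1.73% in the control), which turns the direction of the difference, as do all barcodes meeting the protease signature (2.29% in the control and 2.43% at 24 h, chosen after seeing the data). The counts of genes depended mainly on the count minimum and depth. Thinning, another minimum or leaving out a library also changes which genes are tested, so those counts have no common denominator. Against other cells, the higher and lower counts were 36 and 36 after thinning to 500 UMIs, 216 and 297 with a minimum of 5 UMIs and 45 and 45 with a minimum of 50. With either dura library left out they ranged from 114 to 171 higher and from 137 to 184 lower. For 24 h against control, they were 27 and 14 after thinning, 213 and 101 with a minimum of 10, 16 and 19 with a minimum of 50, and 42 higher with 2 added counts. With only the other myeloid cells subtracted they were 67 and 34. Of the named genes, 3 then moved beyond their counting intervals and 17 did not. Ighm went from -1.85 to -0.34, Gm9758 from -3.36 to -2.6 and Rab27b from -1.76 to -2.41. Without the subtraction Tpsab1 stood at 0.79 and Fam129b at 0.32, the reverse of their subtracted values. Leaving out the cells with 3 or more Mcpt8 UMIs, an alternative chosen after seeing the data, gave 51 higher and 44 lower at 24 h.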

Other observations

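In dura at 24 h, 14 of 4425 cells of other clusters met the mast cell protease signature (0.316%, exact binomial 95% interval 0.173% to 0.530%), against 6 of 2748 in control dura (0.218%, 0.0802% to 0.475%), a difference within the intervals. Of these, 7 and 3 held 20 or more UMIs of the 4 genes (0.158% and 0.109%). Tpsb2 was found in 7.59% of other cells at 24 h and in 3.78% in control dura, against 0.0233% in control brain.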
